A study of Mus musculus with 13 samples.

Results

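Spp1 and Cd44, 2 of the 55353 gene names in the count matrices, encode osteopontin and one of its receptors. Both genes were followed in all barcodes with at least 1500 unique molecular identifiers (UMIs, each standing for 1 captured RNA molecule) of 13 single-cell RNA-seq libraries from mouse liver, 95563 cells in all. Levels were compared across 6 marker-defined cell types, which are biliary epithelial cells (BEC), Gpnmb-positive macrophages, Kupffer cells, T cells, NK cells and fibroblasts, and across the days on diet. In the mm10 assembly (GRCm38), Spp1 (ENSMUSG00000029304.14) lies on the plus strand at chr5:104435118-104441050. Cd44 (ENSMUSG00000005087.17) lies on the minus strand at chr2:102811141-102901665.

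The mice were male C57BL/6J, 6 to 12 weeks of age. They received chow with 0.1% DDC (diethoxycarbonyl dihydrocollidine), which causes cholangitis with a ductular reaction, for 3, 5, 9, 19 or 25 days, or stayed off DDC (D0, steady state). Each of these days has 1 library per isolation protocol. Protocol A sorted live singlets for Cd45, Lyve-1, Pdpn, Epcam, Cd31 or retinoid autofluorescence. Protocol B combined live cells from a stellate cell preparation with sorts for Cd45+ Itgax+ Cd64-, Epcam+ and Cd3e+ Lyve-1- cells, and used another index kit, so sort, kit and batch cannot be told apart. A further library, STOP, came from mice taken off DDC after 18 days and kept for 7 more days (protocol B), and the D19 library of protocol B carries day 18 in its label. Days 3 and 5 are called onset here, and days 9, 19 and 25 progression. The labels do not tie libraries to mice, so that p-values measure only the spread between these libraries, which may be technical in part.

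Osteopontin is a secreted phosphoprotein of the SIBLING family. It holds an arginine-glycine-aspartate motif that binds integrins of the alpha v kind, and thrombin and matrix metalloproteinases cleave it, which opens a binding site for alpha 4 and alpha 9 integrins. In the liver it is known as a product of bile duct epithelium and of macrophages at sites of injury. CD44 is a transmembrane glycoprotein whose main ligand is hyaluronan, and it also binds osteopontin. It is long used to tell antigen-experienced from naive T cells, and most leukocytes carry it. Counts from the 3′ end of transcripts, as used here, do not separate the splice forms of Cd44.

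Libraries held between 1541 (D3 B) and 14764 cells (D9 A), 29307190 to 108602421 UMIs in all barcodes and a median of 3350 to 12013 UMIs per cell. Any pair of libraries shared at most 0.519% of the smaller library's cell barcodes. Of 68 clusters, 13 stayed unnamed (8.36% of cells, 1.82% to 15.2% per library), among them a cluster of 2157 cells led by Ly6c2, Ikzf2 and Cd8a. The 6 BEC-like clusters detected 8 or 9 of 10 BEC markers, the Kupffer cell-like clusters 8 of 8, the fibroblast-like cluster 9 of 10, the T-like clusters 7 to 9 of 9, the NK-like clusters 4 or 8 of 8 and the Gpnmb-positive macrophage-like clusters 4 to 7 of 8. The cluster with 4 of 8 was led by Gdf15 and Cx3cr1, and had 2 markers of its own list and 2 of the list for other macrophages among its 10 leading genes. The largest Gpnmb-positive cluster (4979 cells without STOP), led by Ms4a7, Gpnmb and Trem2, had 3 markers of other macrophages (Ms4a7, Cx3cr1 and C1qb) against 2 of its own among these 10, and 2 T-like clusters had 1 NK marker against 0 T markers. Some results on these types, but not all, are therefore also given by cluster or without these clusters, a choice made after seeing the data. Spp1, Cd44 and the 41 genes of the osteopontin and CD44 lists took no part in the clustering, but the clusters come from the same cells. BEC-like cells numbered 785 in D0 A but 2 in D0 B, 16 in D3 A and 6 in D5 A, and sums of fewer than 20 cells were not used. Steady-state BEC-like cells thus came from 1 library, and no onset library held 20 fibroblast-like cells.

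Spp1 was first of all a BEC gene. In the 12 diet libraries without STOP, BEC-like cells made up 6.10% of the cells and held 84.7% of the 1680749 Spp1 UMIs. Gpnmb-positive macrophage-like cells, 10.02% of the cells, held a further 10.03%. In D3 A, D5 A and D19 A, which hold 16, 6 and 89 BEC-like cells, the macrophage-like cells held the larger share, 61.1%, 61.1% and 65.6% against 31.0%, 25.4% and 18.2% in BEC-like cells, so that the pooled share moves with the number of BEC-like cells in a library. T-like cells, at 9.09% of the cells, held 0.150%, Kupffer cell-like cells 0.168%, fibroblast-like cells 0.157% and NK-like cells 0.0283%.

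In BEC-like cells, Spp1 stood at 17828 CPM (UMIs of the gene scaled to 1000000 UMIs of the cells summed) in D0 A. The onset libraries gave 12494 CPM (D3 B) and 21539 CPM (D5 B). The progression libraries gave 9580 (D9 A), 17733 (D9 B), 16549 (D19 A), 15697 (D19 B), 12130 (D25 A) and 20080 CPM (D25 B). The level in D0 A lay inside the range of the 8 DDC libraries. Expression was broad: after each cell was thinned to 1500 UMIs, between 80.2% and 98.5% of the BEC-like cells still held a Spp1 UMI, and 11.4% to 25.8% of the cells were needed to reach 50% of a library's Spp1 UMIs.

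Across the diet, Spp1 in BEC-like cells differed by -0.28 on the log2 scale between DDC and steady state (SE 0.50, 95% interval -1.39 to 0.83, adjusted p = 0.786, edgeR's quasi-likelihood test on sums per library). Between progression and onset the log2 difference was -0.00079 (SE 0.37, adjusted p = 1). With 1 steady-state library, the first interval leaves room for a fall of 1.39 or a rise of 0.83 log2 units.

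**Figure D1:**
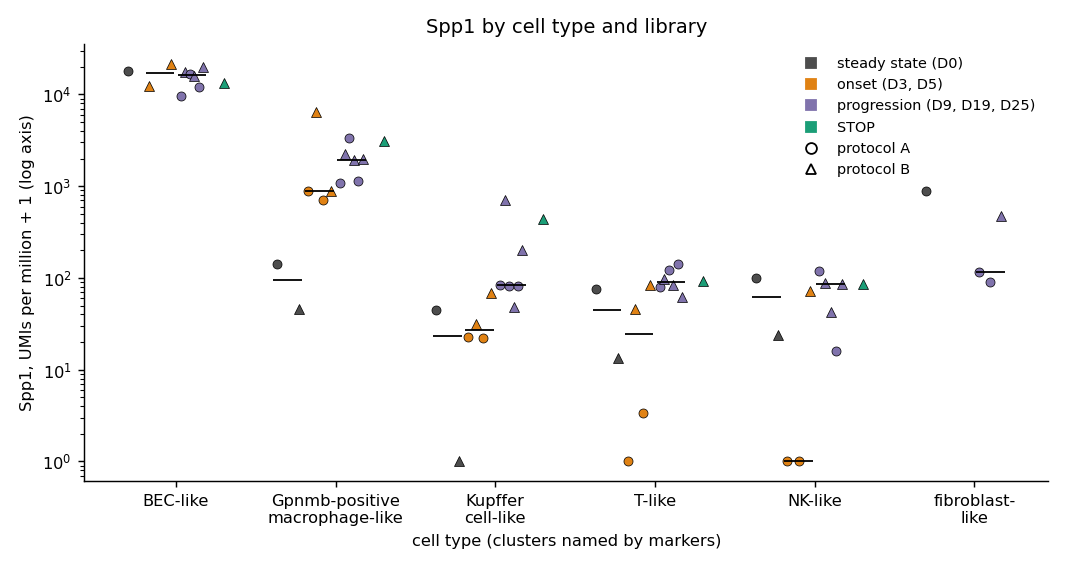
Spp1 in CPM plus 1 (log axis) by cell type, with 1 point per library of at least 20 cells of that type; colour gives the diet stage, shape the protocol, and bars the median of a stage with 2 or more libraries. BEC-like cells lie between 9580 and 21539 CPM in the 9 libraries without STOP, and Gpnmb-positive macrophage-like cells range from 44.4 CPM at D0 to 6414 CPM at D3.

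Within BEC, Spp1 was lower in large duct-like cells. This cluster (1357 cells without STOP) was led by Muc3, a membrane mucin, and Dmbt1, a mucosal scavenger receptor protein, and was the cluster that met the large duct marker list (Dmbt1, Muc4, Sox17, Muc3, Cited1, Aqp8). Its Spp1 level was 2372 CPM in D0 A, 2581 in D3 B, 11116 in D5 B, 1890 in D9 A, 7692 in D9 B, 10603 in D19 B, 3767 in D25 A and 4360 in D25 B. The other BEC-like cells of the same libraries gave 19206, 14579, 22300, 17373, 19320, 16447, 18018 and 23054 CPM in that order. Large duct-like cells were thus the lower of the pair in 8 of 8 libraries, with no overlap between the groups. The share of all genes without overlap was not counted. The difference was -1.91 log2 units (SE 0.25, adjusted p = 4.94e-05, edgeR's quasi-likelihood test with the library as block), at a background in which 43.5% of all genes tested were called, 23.9% as lower and 19.6% as higher in large duct-like cells. Spp1 was called lower and Cd44 was not called.

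The level of Spp1 also varied among the other BEC-like clusters. The cluster with Cxcl5, a neutrophil-attracting chemokine, and Wfdc18 among its leading genes (1459 cells without STOP) ranged from 20907 to 30952 CPM over 7 libraries. The cluster led by Lamc3, Kcnma1 and Ces1d, which holds 80.9% of the BEC-like cells of D0 A but 12.6% of those under DDC, gave 20191 CPM in D0 A and 3760 (D19 A) to 36681 CPM (D5 B) under DDC. Cells led by Tff2, a trefoil factor, and Cldn4 lay between 10358 and 17377 CPM, and the dividing cells led by Cenpf and Cdc20 between 14531 and 23150 CPM. At a finer Leiden resolution of 3, a cluster of 828 cells led by Tff2, Wfdc18 and Cldn4 (STOP included) stayed unnamed. It also met markers of type 1 conventional dendritic cells (cDC1). A small cluster led by Sh2d6, Rgs13 and Cdhr2 (124 cells) held the least, 925 and 3542 CPM in the 2 libraries with enough cells. In contrast, 30 cells led by Spink1 and Hsd17b13, left unnamed for their hepatocyte markers, reached 32591 CPM when pooled over the libraries without STOP. These ranges are given as a description, with no test between clusters.

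**Figure D2:**
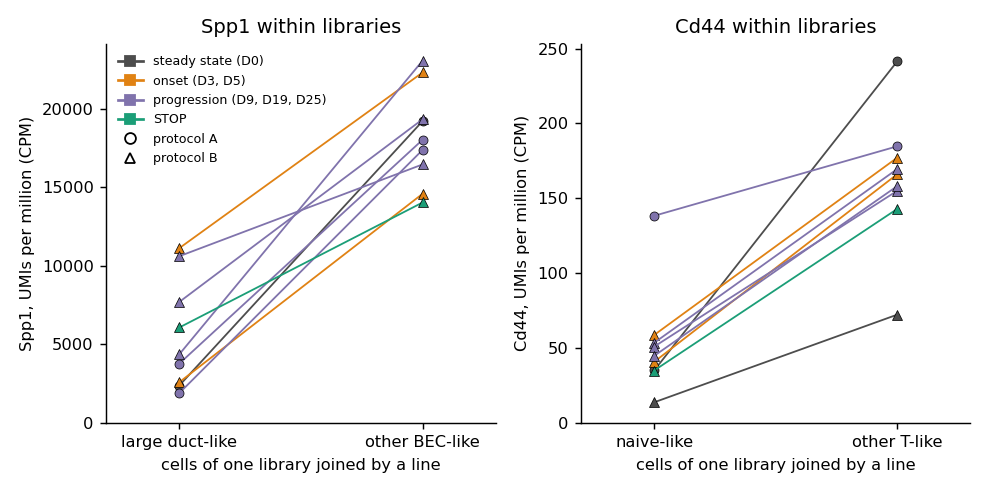
Left, Spp1 in large duct-like and other BEC-like cells; right, Cd44 in naive-like and other T-like cells, in CPM, each line joining the 2 kinds of cell of 1 library. Spp1 is lower in large duct-like cells and Cd44 lower in naive-like cells in every library drawn, STOP included.

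Pooled over the libraries without STOP, Gpnmb-positive macrophage-like cells were the second site of Spp1. In D25 B, however, stellate-like cells held more of it (15908 against 11651 UMIs). Nor did this place hold at steady state. In D0 A fibroblast-like cells held 1633 and Kupffer cell-like cells 113 Spp1 UMIs against 70 in the macrophage-like cells. In D0 B T-like cells held 49 against 14. In Gpnmb-positive macrophage-like cells, whose name-giving marker Gpnmb is a lysosomal and cell surface glycoprotein of lipid-laden macrophages, Spp1 was 142 CPM in D0 A (70 UMIs in 81 cells) and 44.4 CPM in D0 B (14 UMIs in 61 cells). It was 895 CPM in D3 A, 6414 in D3 B, 708 in D5 A and 889 in D5 B. In progression it was 1094 (D9 A), 2239 (D9 B), 3329 (D19 A), 1926 (D19 B), 1148 (D25 A) and 1971 CPM (D25 B). The 2 steady-state libraries lay below all 10 DDC libraries, and the share of all genes with such a gap was not counted.

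The rise from steady state to DDC was 4.48 log2 units (SE 0.91, 95% interval 2.53 to 6.44, adjusted p = 0.0367, edgeR's quasi-likelihood test), where 1.05% of 12264 genes tested were called. Of the 2 genes, Spp1 was called higher, and Cd44 was not. The call did not hold within protocols (3.53 log2 units, adjusted p = 0.280 in protocol A alone, and 5.93, adjusted p = 0.0901 in protocol B alone), and it was lost on leaving out any 1 of D0 A, D0 B, D3 A, D9 B, D19 B or D25 B (3.78 to 5.94 log2 units, largest adjusted p = 0.163 without D0 B). By cluster, the rise was 4.26 log2 units in the Ms4a7-led cluster (SE 0.91, adjusted p = 0.0401) and 3.47 in the Gdf15-led cluster (SE 1.22, adjusted p = 0.273), and it was 3.92 without the Ms4a7-led cluster (adjusted p = 0.195). The last 2 values rest on 11 libraries, with D0 A alone at steady state. Between progression and onset Spp1 differed by 0.06 log2 units (SE 0.55, adjusted p = 0.987), with 0.212% of genes called. Without any 1 library this difference ranged from -0.31 to 1.20.

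A minority of macrophages carried most of the Spp1. Between 1.64% and 6.21% of the Gpnmb-positive macrophage-like cells of a library held 50% of its Spp1 UMIs, for example 103 of 3003 cells in D9 A, each with at least 34 Spp1 UMIs, and 9 of 145 cells in D3 B, each with at least 696. Of the 332 cells that made up these upper parts over 12 libraries, 16 held 2 or more epithelial markers, as a doublet with BEC would. Among the upper cells this share was 12.5% in D5 A and 12.2% in D25 A, against 0.329% and 2.72% of the others. It was 6.8% against 9.69% in D9 A and 0% against 2.18% in D25 B, so that the order differed between libraries. In cells with fewer than 2 epithelial markers Spp1 was 1035 CPM in D9 A and 6219 CPM in D3 B, close to the level in all cells. The share of cells with a Spp1 UMI after thinning was 11.1% in D0 A and 4.92% in D0 B against 18.9% to 51.3% under DDC, beside 0.211% to 18.1% in LSEC-like cells (liver sinusoidal endothelium, taken as cells that should lack osteopontin), at median depths of 4551 to 20209 and 2171 to 8933 UMIs before thinning. By cluster, the median over libraries was 1335 CPM in the cells led by Ms4a7, Gpnmb and Trem2, 838 CPM in those led by Gdf15 and Cx3cr1, and 1433 CPM in those led by Gpnmb, Slc37a2 and Gas2l3. Of the Gdf15-led cells, 61.66% came from D9 A (STOP included). At the finer Leiden resolution of 3, a cluster of 3002 cells led by Ms4a7, Cx3cr1 and Trem2 held a mean of 7.48 Spp1 UMIs per 10000 UMIs of a cell, and a cluster of 1697 cells led by Atp6v0d2, Gpnmb and F7 held 39.5, STOP included in both. A cluster of 1005 cells led by Slc4a4, Cldn7 and Tm4sf4, 90.55% of them from D9 A, held 14.4. It stayed unnamed there because its leading genes belonged to another lineage, although Mmp12 and Adgre1 were among them. How many of its cells are Gpnmb-positive macrophage-like in the main clustering was not counted.

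Low levels of Spp1 in the other cell types moved with Spp1 in free RNA. Barcodes of at most 100 UMIs, taken as free RNA, held 16.7 CPM of Spp1 in D0 B, 193 in D5 A and 263 in D3 A, the libraries with the fewest BEC-like cells, and 1561 to 2847 CPM in the other 9. Spp1 in T-like cells was 12.3, 2.39 and 0 CPM in those 3 libraries and 44.9 to 140 CPM in the others. LSEC-like cells showed the same split, with at most 3.94 CPM in the former and 28.6 to 110 CPM in the latter. Pearson's r of the cell level with the free RNA level over 12 libraries was 0.69 in T-like, 0.87 in Kupffer cell-like and 0.93 in LSEC-like cells, and over 10 libraries 0.53 in NK-like cells, as a description of values that share a library.

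The level that free RNA alone would give was set from hepatocyte marker genes, as their level in a cell type times the ratio of Spp1 to these genes in free RNA. This counts all hepatocyte marker RNA in a cell as free RNA. Such RNA from another source, for example doublets, which were not removed, would set the level too high. In Gpnmb-positive macrophage-like cells Spp1 exceeded it in 11 of 12 libraries, by 1.02 (D5 B) to 10.5 times (D3 B), the exception being D0 A at 0.423 times. The ratio was not read for BEC-like cells. In Kupffer cell-like cells it exceeded it in 0 of 12 libraries (at most 0.712 times). In T-like cells it did so in 1 of 12 and in NK-like cells in 1 of 10, both in D0 B, where 1 of 1596 T-like cells held 50% of the Spp1 UMIs of its type and NK-like cells held 5 UMIs. No expression by the cells themselves is read from levels at or below that of free RNA, and the part of free RNA in them was not tested.

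**Figure D3:**
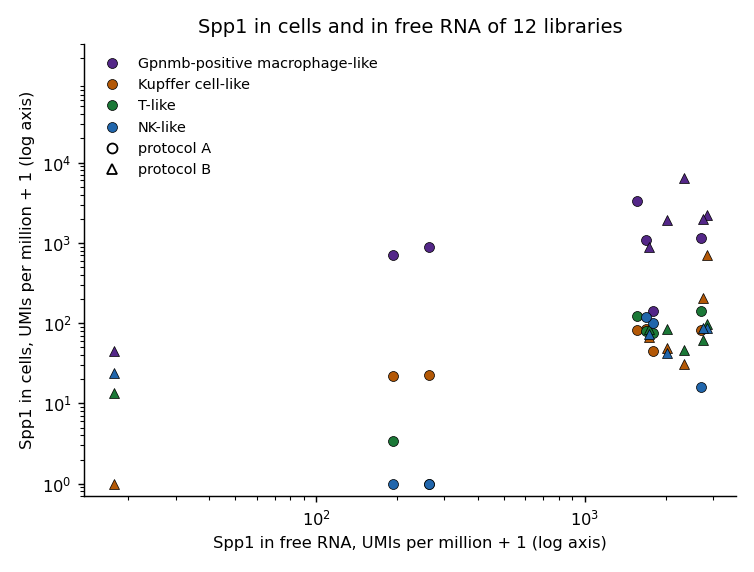
Spp1 in 4 cell types against Spp1 in free RNA (barcodes of at most 100 UMIs), in CPM plus 1 on log axes, with 1 point per cell type and library of the 12 libraries without STOP; colour gives the cell type, circles protocol A and triangles protocol B. T-like, NK-like and Kupffer cell-like points are low where free Spp1 is low (16.7 to 263 CPM), and Gpnmb-positive macrophage-like points lie above them in each of these libraries.

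Set side by side within libraries, BEC-like cells had the highest Spp1 level and Gpnmb-positive macrophage-like cells exceeded Kupffer cell-like, T-like and NK-like cells. BEC-like cells exceeded Gpnmb-positive macrophage-like cells by 3.41 log2 units (SD 1.65, n = 9 libraries, higher in 9 of 9, adjusted p = 0.0107, exact two-sided sign-flip permutation test on log2(CPM + 1), adjusted over 30 tests). Gpnmb-positive macrophage-like cells in turn exceeded Kupffer cell-like cells by 4.33 (SD 1.72, n = 12, higher in 12 of 12, exact adjusted p = 0.00293), T-like cells by 4.70 (SD 2.51, n = 12, exact adjusted p = 0.00293) and NK-like cells by 4.84 (SD 3.10, n = 10, exact adjusted p = 0.00732), the last not called at 3000 UMIs per barcode (5.63, exact adjusted p = 0.0670). Among the lower types no pair was called: Kupffer cell-like against T-like cells gave 0.36 (SD 2.21, higher in 5 of 12, exact adjusted p = 0.578), Kupffer cell-like against NK-like cells 0.95 (SD 2.79, exact adjusted p = 0.387) and T-like against NK-like cells 0.40 (SD 1.24, exact adjusted p = 0.425). Pairs with fibroblast-like cells rest on at most 4 libraries, where the smallest p the test allows is 0.125. Gpnmb-positive macrophage-like minus fibroblast-like cells gave 1.97 (SD 3.33, n = 4, higher in 3 of 4, exact adjusted p = 0.425), with fibroblast-like cells the higher of the pair in D0 A, at 877 against 142 CPM. With mixed barcodes removed D0 A gave 62.3 against 142 CPM and the difference was 4.41 (exact adjusted p = 0.197), and without any 1 library it ranged from 0.88 (D19 A left out) to 3.50 (D0 A left out).

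In some libraries, 1 or 2 cells held most of the Spp1 UMIs of the Kupffer cell-like or fibroblast-like cells. Kupffer cell-like cells gave 44.2 CPM in D0 A, 0 in D0 B (23 cells), 21.2 to 66.8 CPM at onset and 47.6 to 711 CPM in progression. In D9 B, 1 cell with 308 of 377 Spp1 UMIs made the 711 CPM, and cells with fewer than 2 epithelial markers stood at 85.2 CPM. Spp1 differed by 0.60 log2 units between DDC and steady state (SE 0.70, adjusted p = 0.725). Left with D0 A as the sole steady-state library, the contrast gave 0.12, and left with D0 B, which holds 0 Spp1 UMIs so that the value depends on the prior count, 11.8. Neither was called. Spp1 differed by 2.23 between progression and onset (SE 0.53, adjusted p = 0.0883), so neither contrast passed, against 2.33% and 0.221% of genes called. The difference between progression and onset did pass without D9 A or D19 B (1.62 to 2.42 without any 1 library). Both onset libraries of protocol A have little Spp1 in free RNA, and the part of free RNA in this difference was not tested.

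In fibroblast-like cells, Spp1 was 877 CPM in D0 A, 116 in D9 A, 88.4 in D19 A and 477 CPM in D25 B. The fit called Spp1 lower under DDC (-2.92 log2 units, SE 0.40, adjusted p = 4.37e-06, 4 libraries, 1 of them at steady state, with 1.16% of genes called), while Cd44 was not called. D25 B was the only library of protocol B in this fit, so the protocol term took up its value. The contrast thus set D0 A against D9 A and D19 A, with 1 residual degree of freedom, and was -2.93 log2 units without D25 B. The fall was smaller without the protocol term. In D0 A, 2 of 244 cells, both with 2 or more epithelial markers, held 50% of the Spp1 UMIs, and cells with fewer than 2 such markers stood at 54.1 CPM. Once barcodes with markers of another lineage were removed, the difference was 0.57 (adjusted p = 0.938), so that the call was lost and the direction turned.

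In T-like and NK-like cells, Spp1 differed by 0.90 (SE 0.75, adjusted p = 0.607) and -0.59 log2 units (SE 0.73, adjusted p = 0.841) between DDC and steady state, at 0.581% and 0.46% of genes called. Neither Spp1 nor Cd44 was called in either type. Within protocols the Spp1 difference in T-like cells took opposite signs, -2.25 log2 units in protocol A (adjusted p = 0.136) and 2.34 in protocol B (adjusted p = 0.0144), where 1 of 1596 cells held 33 of the 49 UMIs of D0 B. In protocol A the T-like sums held 26 Spp1 UMIs in D0 A, 0 in D3 A and 1 in D5 A. The NK-like sums of protocol A held 40 Spp1 UMIs in D0 A, 25 of them in 5 of 144 cells, and 0, 0, 17 and 1 in D3 A, D5 A, D9 A and D25 A, too few for a within-protocol value to be read. Spp1 in free RNA was 1792 CPM in D0 A but 193 and 263 CPM at onset in protocol A. In protocol B it was 16.7 CPM in D0 B but 1729 to 2847 CPM under DDC. The part of free RNA in these differences was not tested. The highest Spp1 of any T-like cluster, 468 CPM in the D19 B cells led by Coch and Gzmk, came to 81.6% from 5 cells, and the 497 STOP cells of that cluster gave 66.9 CPM.

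Outside the 6 types, Spp1 reached 3207 CPM in the 339 stellate-like cells of D25 B, 2269 CPM in the 49 mesothelium-like cells of D0 A and 1766 CPM in the 139 monocyte-like cells of D19 A. A few cells carried a large part of the monocyte-like and stellate-like values. Of the 139 monocyte-like cells, 4 held 50% of their Spp1 UMIs (891 CPM without these 4). Of the 339 stellate-like cells, 14 did so (1698 CPM without them), and 28.6% of these 14 had 2 or more epithelial markers against 2.15% of the others. Stellate-like cells with fewer than 2 epithelial markers still stood at 2591.5 CPM in D25 B. In STOP, 511 stellate-like cells gave 1757 CPM. Each type also had libraries with low values, with 8.65 CPM in stellate-like cells of D5 A, 32.0 CPM in mesothelium-like cells of D19 B and 0 CPM in monocyte-like cells of D0 B.

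Cd44 was spread over many more cell types than Spp1. Of 146199 Cd44 UMIs in the libraries without STOP, Gpnmb-positive macrophage-like cells held 22.7%, BEC-like cells 21.8%, Kupffer cell-like cells 15.3% and neutrophil-like cells 8.96%. T-like cells held 2.33%, NK-like cells 0.794% and fibroblast-like cells 0.367%. These shares follow the cells recovered as well as the level per cell and differed between libraries. BEC-like cells held 0.273% of Cd44 UMIs in D3 A and 41.5% in D25 A, Kupffer cell-like cells led in D0 A, D3 A and D5 A (33.5%, 41.5% and 23.5%), and cDC1-like cells led in D0 B (29.9%).

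Neutrophil-like cells, first responders that use CD44 to adhere in sinusoids, had the highest median level, 766 CPM (580 to 1633 over 11 libraries). Monocyte-like cells followed with 581 CPM (394 to 899, 7 libraries), Kupffer cell-like cells with 523 CPM (351 to 934, 12 libraries) and plasmacytoid dendritic cell-like cells with 473 CPM (189 to 1047, 9 libraries). The medians were 348 CPM in BEC-like, 339 CPM in Gpnmb-positive macrophage-like, 147 CPM in NK-like, 97.5 CPM in T-like and 93.2 CPM in fibroblast-like cells. At the low end stood LSEC-like cells with 7.15 CPM (0.896 to 22.7) and hepatocyte-like cells with 21.6 CPM. Free RNA held 88.1 to 278 CPM of Cd44, and with the hepatocyte marker scaling the level exceeded free RNA in 12 of 12 libraries in T-like, Kupffer cell-like and Gpnmb-positive macrophage-like cells and in 0 of 12 in LSEC-like cells.

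**Figure D4:**
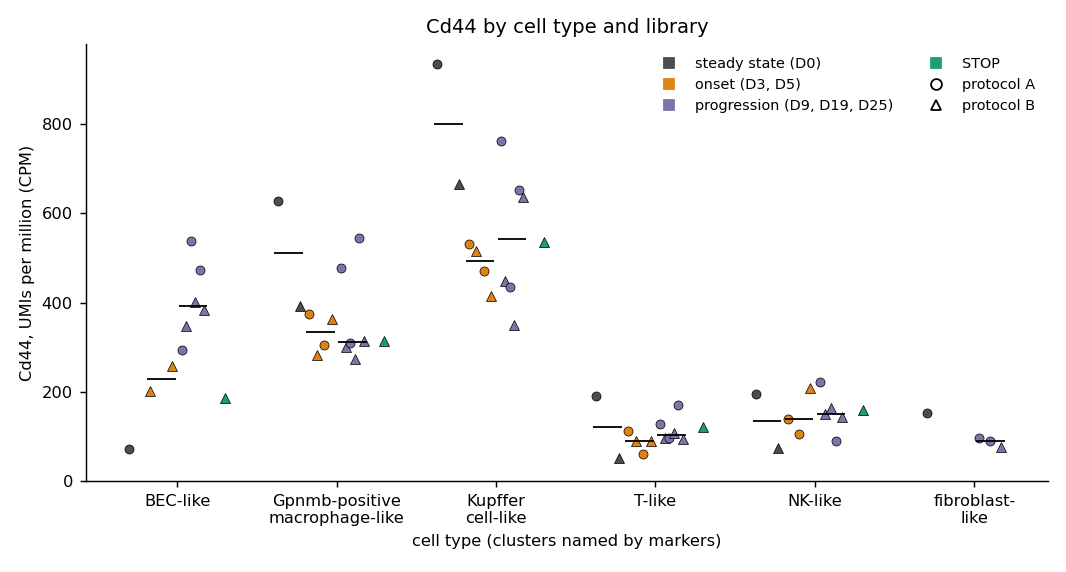
Cd44 in CPM by cell type, with 1 point per library of at least 20 cells of that type; colour gives the diet stage, shape the protocol, and bars the median of a stage with 2 or more libraries. The single D0 point of BEC-like cells (71.8 CPM) lies below their 8 DDC points (201 to 538 CPM), and Kupffer cell-like cells lie above T-like, NK-like and fibroblast-like cells.

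Within libraries, Kupffer cell-like cells exceeded Gpnmb-positive macrophage-like cells in Cd44 by 0.57 log2 units (SD 0.24, n = 12, higher in 12 of 12, exact sign-flip permutation test, adjusted p = 0.00293). They exceeded T-like cells by 2.42 (SD 0.51, n = 12, exact adjusted p = 0.00293) and NK-like cells by 1.99 (SD 0.69, n = 10, exact adjusted p = 0.00732). Neither was called at 50 cells per sum, where 6 and 5 libraries were left (2.23, exact adjusted p = 0.0721, and 1.65, exact adjusted p = 0.134). Gpnmb-positive macrophage-like cells were above T-like cells by 1.85 (SD 0.40, exact adjusted p = 0.00293) and above NK-like cells by 1.44 (SD 0.64, exact adjusted p = 0.00732). Macrophages thus carried more Cd44 than lymphocytes in every library with both. The order of Kupffer cell-like over Gpnmb-positive macrophage-like cells did not hold for each cluster. Median Cd44 was 560 CPM in the macrophage-like cells led by Gpnmb, Slc37a2 and Gas2l3, and 337 and 303 CPM in those led by Ms4a7 and by Gdf15. The Kupffer cell-like clusters led by Clec4f and by Marco had 679 and 379 CPM. These medians rest on unlike sets of libraries, and clusters were not tested against each other.

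BEC-like cells had no fixed place in this order. Against T-like cells they were higher by 1.34 log2 units (SD 1.11, n = 9, higher in 8 of 9, exact adjusted p = 0.0361), and this call was lost on leaving out any 1 of the 8 DDC libraries (largest adjusted p = 0.0721). It was also lost with mixed barcodes removed (1.01, exact adjusted p = 0.141) and at 50 cells per sum (1.20). The same held without the 2 T-like clusters with 1 NK marker and 0 T markers among their leading genes (1.04, exact adjusted p = 0.134). Against Gpnmb-positive macrophage-like cells the difference was -0.35 (SD 1.15, n = 9, exact adjusted p = 0.517) and against Kupffer cell-like cells -0.90 (SD 1.19, n = 9, exact adjusted p = 0.0502), the latter past the threshold without D19 A (-1.06, exact adjusted p = 0.0361) or D19 B (-1.04, exact adjusted p = 0.0391). T-like against NK-like cells gave -0.45 (SD 0.57, n = 10, exact adjusted p = 0.0820). This was called at 3000 UMIs per barcode (-0.59, exact adjusted p = 0.0391), with mixed barcodes removed (-0.49, exact adjusted p = 0.0293), at 50 cells per sum (-0.62, exact adjusted p = 0.0469) and without D25 A (-0.60, exact adjusted p = 0.0130). Without the same 2 T-like clusters the difference was -0.28 (exact adjusted p = 0.313).

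Cd44 in BEC-like cells was lower at steady state than at any time on the diet. It was 71.8 CPM in D0 A (743 UMIs in 785 cells). The onset libraries gave 201 CPM (D3 B) and 259 CPM (D5 B), and the progression libraries 293 (D9 A), 348 (D9 B), 538 (D19 A), 401 (D19 B), 472 (D25 A) and 384 CPM (D25 B). D0 A lay below all 8 DDC libraries, and the 2 onset libraries below all 6 progression libraries. How many of all genes show such gaps was not counted. After thinning to 1500 UMIs, 7.26% of the BEC-like cells of D0 A held a Cd44 UMI, against 21.0% to 46.1% under DDC, beside 0% to 3.79% of LSEC-like cells thinned in the same way. Before thinning, the share in BEC-like cells was 24.8% in D0 A (median depth 10051 UMIs) and 67.3% to 90.3% under DDC (9288 to 27279 UMIs), and in LSEC-like cells 0.211% to 8.33% (2171 to 8933 UMIs).

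Cd44 rose by 2.47 log2 units from steady state to DDC (SE 0.40, 95% interval 1.59 to 3.35, adjusted p = 0.0253, edgeR's quasi-likelihood test, 9 libraries), where 1.58% of 15888 genes were called. Of the 2 genes, Cd44 was called higher in BEC-like cells and Spp1 was not called. The call rests on a single steady-state library, and no steady-state BEC-like sum exists in protocol B. Both onset sums, D3 B and D5 B, are of protocol B, so that onset and steady state share no protocol. The sums of protocol A are D0 A, D9 A, D19 A and D25 A, which set progression alone against steady state. In protocol A alone the rise was 2.73 log2 units (SE 0.42, adjusted p = 0.0294, 4 libraries). It was lost without D19 B (adjusted p = 0.0600), without D25 A (adjusted p = 0.0689) and with barcodes holding markers of another lineage removed (2.51 log2 units, adjusted p = 0.0564). Such mixed barcodes were 141 of the 785 BEC-like cells in D0 A, and under DDC between 200 of 526 cells in D25 B (38.0%) and 644 of 1080 cells in D9 A (59.6%), a lower share at steady state than in any DDC library. The remaining BEC-like cells gave 60.3 CPM of Cd44 in D0 A and 154 to 585 CPM in the 8 DDC libraries. From onset to progression the difference was 0.65 log2 units (SE 0.26, 95% interval 0.07 to 1.23, unadjusted p = 0.0320, adjusted p = 0.821), at 0.0% of 15888 genes called, 937 at an unadjusted p under 0.05 and 19 called by DESeq2.

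Large duct-like cells had no low steady-state level. Their Cd44 was 425 CPM in D0 A (62 cells), and 304 (D3 B), 241 (D5 B), 308 (D9 A), 377 (D9 B), 352 (D19 B), 366 (D25 A) and 371 CPM (D25 B) under DDC, so that D0 A was the highest of 8. The other BEC-like cells stood at 40.3 CPM in D0 A (723 cells), at 179 (D3 B) and 260 CPM (D5 B) at onset and at 278 (D9 A) to 547 CPM (D25 A) in progression. Without large duct-like cells the rise under DDC was 3.26 log2 units (SE 0.48, adjusted p = 0.0212). The difference between large duct-like and other BEC-like cells in this respect was not tested. Over 8 libraries, large duct-like against other BEC-like cells gave 0.48 log2 units for Cd44 (SE 0.32, adjusted p = 0.251), higher in 4 of 8.

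Where D0 A held enough cells, BEC-like clusters other than the large duct-like one had higher Cd44 in most DDC libraries than in D0 A. In the cluster led by Lamc3, Kcnma1 and Ces1d, where most steady-state cells lie, Cd44 was 35.6 CPM in D0 A and 36.0 CPM in D3 B, then 77.0 in D5 B, 92.8 in D9 A, 137 in D9 B, 503 in D19 A (38 cells), 208 in D19 B, 159 in D25 A and 245 CPM in D25 B. In the cluster led by Tff2 and Cldn4 it was 71.0 CPM in D0 A (69 cells), 237 CPM in D3 B and 289 to 482 CPM from day 5 on. In the cluster led by Cxcl5, which held 7 cells of D0 A, it was 289 CPM in D5 B and 386 to 652 CPM in progression. In the Tff2-led cluster every DDC library was thus above D0 A, and in the Lamc3-led cluster every DDC library but D3 B, whose interval overlaps that of D0 A. At resolution 3, however, 828 cells led by Tff2, Wfdc18 and Cldn4 stayed unnamed for their cDC1 markers. The part of barcodes mixed with dendritic cells in the Tff2-led values was not tested. The Lamc3-led cluster held 80.9% of the BEC-like cells of D0 A but 12.6% of those under DDC. The part of this change in the rise over all BEC-like cells was not tested.

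**Figure D5:**
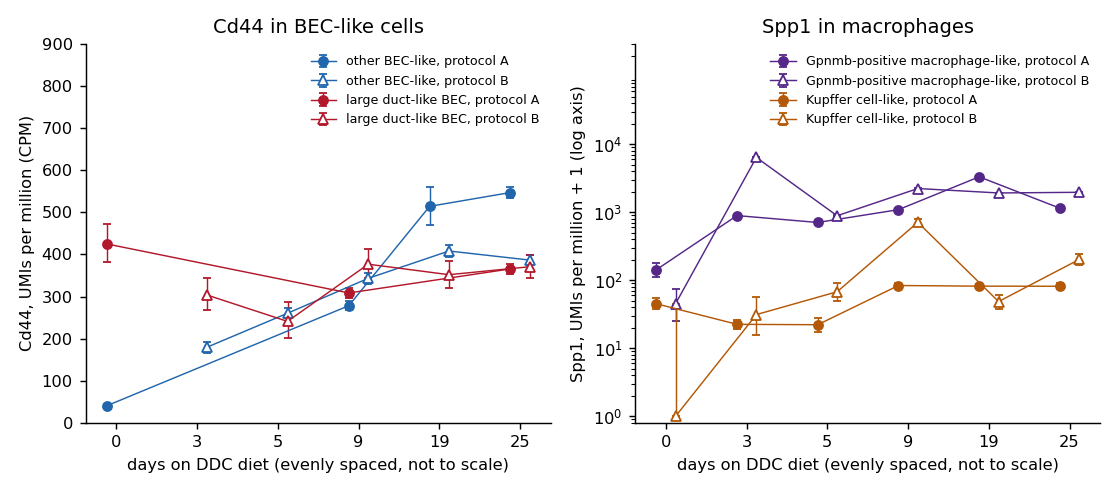
Left, Cd44 in large duct-like and other BEC-like cells in CPM; right, Spp1 in Gpnmb-positive macrophage-like and Kupffer cell-like cells in CPM plus 1 on a log axis, by day on DDC (days evenly spaced, not to scale), 1 point per library with its exact 95% Poisson interval, which covers counting error only. Cd44 in other BEC-like cells climbs from 40.3 CPM at D0 to 547 CPM (D25 A), while large duct-like cells stay between 241 and 425 CPM.

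In the other types Cd44 did not pass between diet stages. Gpnmb-positive macrophage-like cells had 627 CPM (D0 A) and 393 CPM (D0 B) at steady state and 274 to 545 CPM under DDC, a difference of -0.29 log2 units (SE 0.25, 95% interval -0.83 to 0.24, adjusted p = 0.602). Kupffer cell-like cells had 934 and 666 CPM at steady state, the latter from 57 UMIs in 23 cells of D0 B. Under DDC they had 351 to 761 CPM (-0.45 log2 units, SE 0.24, 95% interval -0.96 to 0.06, adjusted p = 0.373). T-like cells gave -0.06 (SE 0.32), NK-like cells 0.31 (SE 0.38) and fibroblast-like cells -0.54 (SE 0.38), with adjusted p of 0.958, 0.836 and 0.730. From onset to progression the largest of these differences in size was 0.23 log2 units in T-like cells (SE 0.27, unadjusted p = 0.398). In that contrast 0.0% of genes were called in T-like cells (501 at an unadjusted p under 0.05, 8 by DESeq2) and 0.0% in NK-like cells (236 at an unadjusted p under 0.05, 0 by DESeq2). The clusters behind some types differed between steady-state and DDC libraries, and the parts of diet, protocol and library in this were not tested. At steady state 91.9% of NK-like cells came from the cluster led by Cma1 and Klra8, and under DDC 12.9%. A cluster of 380 cells led by Xcl1, Cd7 and Ncr1, 96.05% of them from D0 B, stayed unnamed and is not among the NK-like cells. Of the T-like cells of D0 B, 85.6% came from 2 clusters found almost only there.

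Naive-like T cells were low in Cd44. These clusters met a list of naive T cell markers that includes Ccr7 and Lef1 (4220 cells without STOP). Their Cd44 was 34.9 CPM in D0 A, 13.7 in D0 B, 40.7 in D3 B, 58.6 in D5 B, 53.4 in D9 B, 50.8 in D19 B, 138 in D25 A (23 cells) and 44.7 CPM in D25 B. Other T-like cells of the same libraries gave 242, 72.3, 166, 177, 170, 155, 185 and 158 CPM in that order, higher in 8 of 8. The difference was -1.49 log2 units (SE 0.11, adjusted p = 3.73e-11, edgeR's quasi-likelihood test with the library as block). In this comparison 47.2% of 11273 genes were called, 28.8% as lower and 18.4% as higher in naive-like cells, with Cd44 among the lower ones and Spp1 uncalled (-0.20 log2 units, SE 0.19, adjusted p = 0.420). Gamma delta T17-like cells, led by Cd163l1, Il23r and Il17a, had 121 CPM in D0 B (22 cells) and 209 to 330 CPM in the 4 DDC libraries with at least 20 such cells. The unnamed cluster led by Ly6c2, Ikzf2 and Cd8a had 104 to 149 CPM over 5 libraries.

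After withdrawal of DDC, Cd44 in BEC-like cells of STOP was 185 CPM (95% Poisson interval 177 to 193) against 401 CPM (389 to 413) in D19 B, the library nearest in protocol and diet time. With 1 library in each group there is no test, and the intervals cover counting error only. The STOP level was also below D9 B and D25 B (348 and 384 CPM) but above D0 A. The clusters led by Lamc3, by Cxcl5 and by Tff2 all gave lower values in STOP (61.0, 174 and 181 CPM) than in D19 B (208, 528 and 352 CPM), whereas large duct-like cells gave 372 and 352 CPM. Spp1 in BEC-like cells was 13286 CPM in STOP and 15697 CPM in D19 B. With mixed barcodes removed, which kept 227 of 562 cells in STOP and 312 of 543 in D19 B, these values became 26414 and 19142 CPM, so that the direction of the Spp1 difference turned, while Cd44 remained lower in STOP (139 against 466 CPM). In Gpnmb-positive macrophage-like cells Spp1 was 3133 CPM in STOP and 1926 CPM in D19 B (2594 and 1893 CPM with mixed barcodes removed). In Kupffer cell-like cells of STOP, 1 cell held 294 of 314 Spp1 UMIs. Among 104 monocyte-like cells of STOP, Spp1 was 5340 CPM, 50% of it in 4 cells, with 14 such cells in D19 B.

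The genes around osteopontin and CD44 were read from 5 lists of 41 genes. Osteopontin is one of the SIBLING proteins, and none of the other 4 (Ibsp, Dmp1, Mepe and Dspp) passed the filter on low counts in any of the 6 types. In BEC-like cells, 33 genes were tested between DDC and steady state, and 2 were called higher and 1 lower, where 1.58% of all genes tested were called in either direction, and DESeq2 called 10 of the 33. Plau, the urokinase plasminogen activator, was at 0.290 CPM in D0 A, from 3 UMIs, and 3.92 to 12.3 CPM under DDC (4.22 log2 units, SE 0.79, adjusted p = 0.0356, pooled ratio 24.0 with a counting interval of 8.16 to 117). Itgb6, the beta chain of an epithelial osteopontin-binding integrin, was at 36.1 CPM in D0 A and 68.8 to 151 CPM under DDC (1.71 log2 units, SE 0.31, adjusted p = 0.0323). Fam20c, the kinase that phosphorylates osteopontin, fell from 104 CPM in D0 A to 27.4 to 40.4 CPM under DDC (-1.48 log2 units, SE 0.24, adjusted p = 0.0253). For all 3 genes, which were picked by their calls, D0 A lay outside the range of the 8 DDC libraries. The share of all genes that do so was not counted. With mixed barcodes removed (those with at least 2 markers of another lineage), an alternative chosen for the listed genes after seeing the data, Fam20c was still called (-1.77, adjusted p = 0.0416), and Plau (4.14, adjusted p = 0.227) and Itgb6 (1.84, adjusted p = 0.0876) were not. The median over the 33 genes was 0.44 log2 units, beside 0.03 over all genes.

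In Gpnmb-positive macrophage-like cells, 1 of 29 genes was called (1.05% of all genes tested, and 2 of the 29 by DESeq2), Mmp9, a gelatinase that can cleave osteopontin, which was at 81.0 and 41.2 CPM at steady state and at 0 to 8.55 CPM under DDC (-4.20 log2 units, SE 0.68, adjusted p = 0.0140, and -5.06 with mixed barcodes removed). In Kupffer cell-like cells, 4 of 27 genes were called, all higher (2.33% of all genes tested, and 6 of the 27 by DESeq2). Mmp12, macrophage elastase, was at 64.9 CPM in D0 A and 0 in D0 B, a sum of 23 cells. Under DDC it was at 300 to 2838 CPM (4.28 log2 units, SE 0.57, adjusted p = 0.000515). Itgb3, the integrin beta 3 chain (3.22 log2 units, adjusted p = 0.0344, pooled ratio 7.87 with a counting interval of 2.67 to 38.3, on 3 UMIs at steady state), and Fam20c (2.57, adjusted p = 0.0103) were the next in size, and Mmp14, a membrane protease that sheds CD44, was the fourth (1.29, adjusted p = 0.0464), named after its value was seen. With mixed barcodes removed, Mmp12 and Fam20c were still called, Mmp14 was not (0.89, adjusted p = 0.301) and Itgb3 did not pass the filter on low counts. In fibroblast-like cells 1 of 25 genes passed the test (1.16% of all genes tested, 0 of the 25 by DESeq2). This was Mmp12, with 2 UMIs in D0 A, 26 in D9 A, 29 in D19 A and 4 in D25 B (4.65 log2 units, SE 0.86, adjusted p = 0.000616). Mixed barcodes were 37.5% of the fibroblast-like cells, and without them 1, 7, 2 and 0 Mmp12 UMIs were left, the gene did not pass the filter on low counts, and edgeR called 0 of 6886 genes (322 at an unadjusted p under 0.05). In T-like cells 0 of 25 and in NK-like cells 0 of 13 genes were called (5 and 2 at an unadjusted p under 0.05, 1 and 0 called by DESeq2), where 0.581% and 0.46% of all genes tested were called. From onset to progression edgeR called 0 of the listed genes in BEC-like, Gpnmb-positive macrophage-like, Kupffer cell-like, T-like and NK-like cells, with 7, 7, 5, 3 and 1 at an unadjusted p under 0.05 and 0, 2, 0, 0 and 0 called by DESeq2, beside 0.0%, 0.212%, 0.221%, 0.0% and 0.0% of all genes tested. At these shares the counts of 0 are read as nothing about the listed genes.

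Within BEC and within T cells large shares of all genes were called, so the listed genes are described by their values and nothing is read from their counts. In large duct-like against other BEC-like cells, 7 of 33 genes were called higher and 15 lower, beside 19.6% and 23.9% of all genes. The lower ones included 6 of the 9 integrin chains and, as the largest differences, Mmp12 (-2.23 log2 units), Plau (-2.19) and Cd74 (-2.17), which encodes the MIF receptor chain that signals with CD44. The higher ones were led by Cemip, a hyaluronan-degrading protein (3.89, from 25 against 4 UMIs), Ezr, encoding ezrin, which links CD44 to actin (0.95), and Esrp2, an epithelial splicing factor that acts on CD44 (0.74). With mixed barcodes removed, 15 of the 22 calls were kept, among them Cd74 at -2.93. Mmp12 (-0.18, adjusted p = 0.859), Esrp2 (0.48, adjusted p = 0.129) and the integrin chain gene Itga4 (-1.32, adjusted p = 0.145) were not. Cemip and the integrin chain gene Itga9 did not pass the filter on low counts. In naive-like against other T-like cells, 3 of 23 were called higher and 15 lower, beside 18.4% and 28.8% of all genes. The higher ones were Acp5 (1.62), Ezr (0.83) and Mif (0.70), and the lower ones were led by the integrin alpha 8 chain gene Itga8 (-5.12, from 3 against 140 UMIs, pooled ratio 0.0173 with a counting interval of 0.00353 to 0.0517), Mmp9 (-5.07) and Cemip2 (-4.51), a cell surface hyaluronidase. Of these 18 calls 13 were kept with mixed barcodes removed, where Itga8 did not pass the filter and Cemip2 was at -2.94. The medians were -0.56 and -0.43 log2 units over the listed genes, beside -0.08 and -0.07 over all genes.

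Over 163 sums of a named cell type in a library (19 types, 8775 genes with a mean of at least 10 CPM), the genes whose log2(CPM + 1) tracked Spp1 most closely were Clu (Pearson's r = 0.72), Cldn7 (0.71), Cldn3 (0.70), Krt18 (0.70) and Sox9 (0.70). Those closest to Cd44 were Prkcd (0.84), Pik3ap1 (0.84), Ptprj (0.82), Iqgap1 (0.81) and Ptpn6 (0.81). These are descriptions over sums that share libraries and cell types.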

How the data were processed

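The 13 libraries were counted per gene and barcode as UMIs. The authors deposited these counts raw and unfiltered, and the submitters' processing notes name kallisto and GRCm38 without a version. Each barcode of 1500 UMIs or more was treated as a cell (95563 in all). Cells were clustered (Leiden, resolution 1.5, 2000 variable genes without Spp1, Cd44 and the 41 listed genes) and named from fixed markers, by detection in 10% of cells at a fold of at least 2 and at least 3 markers. The scoring was set after the clusters had been seen. Doublets were not removed, and barcodes with 2 or more markers of another lineage were left out as an alternative. Summed counts per cell type and library (20 or more cells) were tested with edgeR 4.0.16 in R 4.3.3 (quasi-likelihood, TMM, filterByExpr, Benjamini-Hochberg, threshold 0.05), with the protocol or the library as a term, and with DESeq2 1.42.0 as an alternative. Cell types were compared within libraries by exact two-sided sign-flip permutation tests on log2(CPM + 1), adjusted over 30 tests. The edgeR fits were also run on simulated counts with 200 genes changed by 2 log2 units. These counts used the real library sizes and the same mean proportions in each library. They had a single fixed dispersion for all genes and no protocol or library effect. The shares recovered hold for this setting, which was not matched to the spread of the data. For DDC against steady state, 17.0% of these genes were recovered in fibroblast-like, 21.5% in BEC-like and 44.0% in NK-like cells. In the other types it was 54.0% (Gpnmb-positive macrophage-like) to 69.0% (T-like), so that differences of this size could go uncalled.

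Positions come from the GRCm38 annotation. Poisson, binomial and counting intervals are exact at 95% and cover counting error only. Depth was 29307190 to 108602421 UMIs per library. The genes named are Spp1, Cd44, at most 3 called genes per direction of each list comparison and the 5 genes most correlated with each of Spp1 and Cd44. Mmp14, Itga4 and Itga9 were added after their values had been seen. Both genes, the cell types and the gene lists were chosen with earlier results of these data known. STOP entered no test.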

Additional observations from a re-analysis of the deposited data

Results flagged for a closer look

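Among the 26 groups of 4 to 10 libraries examined, a value that stood far from the others of its group was found in 2, where chance alone marks about 1 group in 20. Spp1 in Gpnmb-positive macrophage-like cells at onset was 6414 CPM in D3 B, whereas the other 3 onset libraries gave 708 to 895 CPM. The gap was 0.894 of the whole range of these 4 libraries, above the limit of Dixon's test. D3 B is the smallest library and holds 145 of these cells. Cd44 in naive-like T cells in progression was 138 CPM in D25 A, from 23 cells, and 44.7 to 53.4 CPM in the other 3 libraries, with a gap of 0.843 of the range.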

How the results depend on the processing

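The lower levels of Spp1 in large duct-like cells (-2.09 to -1.75 log2 units without any 1 library) and of Cd44 in naive-like T cells (-1.54 to -1.40) kept direction and call under each alternative run: DESeq2, no filter on low counts, 3000 UMIs, mixed barcodes removed, 50 cells per sum, resolution 3, protocol in place of the block, and for T cells the Cd8a-led cluster added. No paired analysis was possible between diet days by replicate number because the labels name protocol A or B and no replicate. The protocol was a term of those fits, and cell types of the same library were compared within libraries or with the library as block.

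The rise of Cd44 in BEC-like cells was 2.51 log2 units with mixed barcodes removed (adjusted p = 0.0564) and 2.34 to 2.67 without any 1 DDC library. The rise of Spp1 in Gpnmb-positive macrophage-like cells was 3.47 in the Gdf15-led cluster, 3.92 without the Ms4a7-led cluster, 4.71 without the protocol term (adjusted p = 0.0521), 3.53 in protocol A, 5.93 in protocol B and 3.78 to 5.94 without any 1 library. The fall of Spp1 in fibroblast-like cells was -2.95 without the filter on low counts, -2.97 at 3000 UMIs and -1.92 without the protocol term, none past the threshold, and turned to 0.57 with mixed barcodes removed and 0.12 at resolution 3. The causes were not tested.

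Of the differences between DDC and steady state that were not called, Spp1 in BEC-like cells turned to 0.059 without the protocol term and 0.028 without large duct-like cells. Spp1 in NK-like cells was -9.27 at 3000 UMIs (adjusted p = 0.290), 0.97 at 50 cells per sum, -3.61 in protocol A (past the threshold, from 40 UMIs in D0 A and 0, 0, 17 and 1 under DDC), 1.45 in protocol B and -4.18 to 0.92 without any 1 library. Spp1 in T-like cells was -2.25 in protocol A, 2.34 in protocol B (past the threshold, with 33 of the 49 UMIs of D0 B in 1 cell) and -0.34 to 2.29 without any 1 library. Cd44 in NK-like cells was -0.46 at 3000 UMIs, -0.19 in protocol A, 1.11 at the highest over the alternatives and -0.16 to 0.997 without any 1 library. Cd44 in T-like cells was 0.13 at 3000 UMIs, 0.084 with mixed barcodes removed, 0.35 at 50 cells per sum and 0.081 with the Cd8a-led cluster. It was 0.67 in protocol B, -0.645 at the lowest over the alternatives and -0.55 to 0.65 without any 1 library.

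Between progression and onset, Spp1 in BEC-like cells was 0.030 without the filter, 0.0025 at 3000 UMIs, 0.028 without large duct-like cells, 0.0067 in protocol B and -0.38 to 0.52 without any 1 library. In Gpnmb-positive macrophage-like cells Spp1 was -0.052 in the Ms4a7-led cluster, -0.10 with mixed barcodes removed, -0.14 without the protocol term, -0.76 in protocol B and -0.31 to 1.20 without any 1 library, and Cd44 was -0.012 with mixed barcodes removed, -0.12 in protocol B and -0.026 to 0.28 without any 1 library. Spp1 in Kupffer cell-like cells passed the threshold at 2.24 without the filter, 1.96 in protocol A, and without D9 A or D19 B (1.62 to 2.42 without any 1 library). Spp1 in NK-like cells was -0.14 at 50 cells per sum, -0.054 in protocol B, 7.07 in protocol A, where both onset libraries held 0 UMIs so that the value depends on the prior count, and 0.85 to 9.44 without any 1 library. Cd44 in NK-like cells was 0.062 without the filter, 0.054 with mixed barcodes removed, 0.018 at resolution 3, 0.48 in protocol A and -0.29 to 0.61. In T-like cells Spp1 passed at 1.01 without the filter and 5.99 in protocol A, where the onset libraries held 0 and 1 UMIs so that this value too depends on the prior count, and Cd44 was -0.069 at 50 cells per sum and -0.014 to 0.35 without any 1 library. Spp1 in naive-like against other T-like cells was 0.064 without the 2 T-like clusters with 1 NK marker and 0 T markers among their leading genes. It ranged from -0.31 to 0.022 without any 1 library.

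Between cell types, Spp1 in BEC-like minus NK-like cells (7.95) was not called at 3000 UMIs, with mixed barcodes removed or at 50 cells per sum (8.22, 8.11 and 7.68), nor without any 1 of 7 libraries. Spp1 turned to -0.14 (Kupffer cell-like minus T-like), -0.065 (Kupffer cell-like minus NK-like) and -0.14 (T-like minus NK-like) at 50 cells per sum, and the first ranged from -0.010 to 0.74 without any 1 library. With mixed barcodes removed, Kupffer cell-like, T-like and NK-like minus fibroblast-like cells gave 0.82, 0.14 and 0.34. Cd44 in T-like minus fibroblast-like cells was -0.025 at 3000 UMIs. DESeq2 called 898 genes where edgeR called 251 in BEC-like cells between DDC and steady state, 363 against 129 in Gpnmb-positive macrophage-like, 140 against 63 in T-like, 84 against 19 in NK-like and 6 against 116 in fibroblast-like cells. Between progression and onset it called 274 against 26 in Gpnmb-positive macrophage-like, 57 against 23 in Kupffer cell-like, 19 against 0 in BEC-like and 8 against 0 in T-like cells. Restriction to 1 protocol, the omission of large duct-like cells and the addition of the Cd8a-led cluster were chosen after seeing the data. So were the fits by macrophage cluster or without clusters whose leading genes held more markers of another type than of their own. For the listed genes, the removal of mixed barcodes was also chosen after seeing the data.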
